A study of Mus musculus with 6 samples.

Results

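Connexins are the subunits of gap junctions. Hexamers of connexins form a hemichannel, hemichannels of neighbouring cells dock, and the resulting channel passes ions and small metabolites between the cells. In arteries, gap junctions couple endothelial cells to each other, smooth muscle cells to each other and, through holes in the internal elastic lamina, endothelium to smooth muscle. The aortic connexins are Gja1 (Cx43), the most widespread; Gja4 (Cx37) and Gja5 (Cx40), known best from arterial endothelium; and Gjc1 (Cx45), known from smooth muscle. Gjb2 (Cx26) is known mainly from epithelia.

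These 5 genes were taken from the 31055 features of a single-cell RNA-seq matrix of mouse aorta. They were chosen by their measured levels in these data, so every value that follows is a description, with no test. Root and ascending segments of the aorta were taken at 16 weeks of age from 6 females of the 129SVE background. Of these, 2 mice carried Tgfbr1M318R/+, a missense allele of the type I TGF-β receptor that models Loeys-Dietz syndrome (LDS). The 4 controls were Tgfbr1+/+, and 2 of them also carried the conditional tracer EGFP-L10a and the recombinase Wnt2CRE. The study describes this recombinase as driven by the Wnt2 promoter and as specific to the cardiac neural crest. The wall was digested with collagenase and elastase for 30 minutes or 1 hour, live nucleated cells were sorted, and transcripts were counted by unique molecular identifiers (UMIs) with 10x Genomics 3′ v3 chemistry.

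The matrix holds 6 libraries, told apart by the suffix of each cell barcode. No suffix is paired with a mouse or a genotype by the labels, so LDS and control aortas were not compared and libraries were not treated as replicates of a group. After filtering, 24972 of 30716 barcodes were kept, 1863 to 6395 in a library, with a median of 5572 to 9838 UMIs per cell. Clusters were built with all connexin and pannexin genes left out and were named from markers. They gave 10364 smooth muscle-like, 13417 fibroblast-like, 572 endothelial-like and 548 leukocyte-like cells. Levels are counts per 1000000 UMIs (CPM), with the UMIs of a gene and all UMIs both summed over the cells of a class in a library, and a library with fewer than 20 such cells has no value; the median and range are over libraries. Library 6 held 10 endothelial-like cells and so lacks an endothelial value. A 3′ count records 1 UMI per captured transcript whatever its length, so counts of different genes were set side by side without a length correction. Of all barcode sequences, 1612 occurred in more than 1 library, mostly among libraries 1, 3, 4 and 5 and between libraries 2 and 6, while among kept cells 76 did.

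Gja1, Gja4, Gja5 and Gjc1 were each detected in the aortic wall, and each had a different distribution over cell classes. Among libraries with a value, Gja1, Gja4 and Gja5 were highest in endothelial-like cells and Gjc1 was highest in smooth muscle-like cells. Gja5 did not exceed 1.11 CPM in any library of the other 3 classes. The endothelial-like class was mixed, with 113 of its 572 cells lymphatic-like by markers. Which of its cells line the aorta was not tested. Gjb2 was counted 3 times in all the fibroblast-like cells and never in smooth muscle-like, endothelial-like or leukocyte-like cells.

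**Figure D1:**
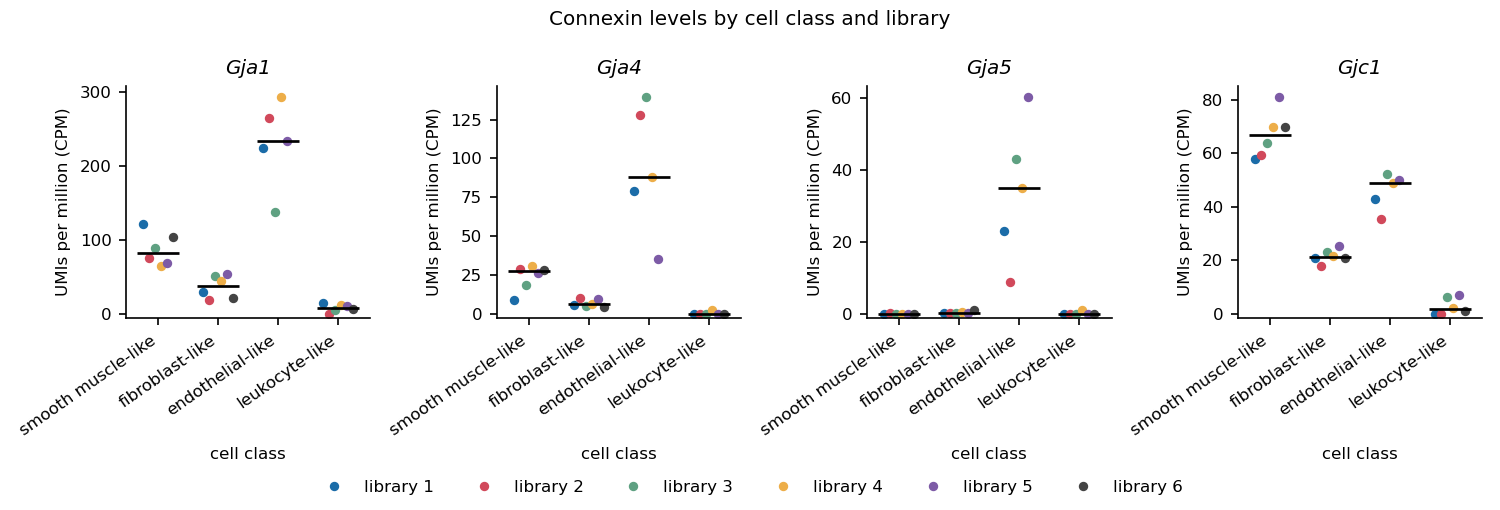
Level of each connexin (vertical axis, CPM, linear, with its own scale in each panel) in 4 cell classes, with 1 point per library and the median as a bar. Endothelial-like values of Gja1 lie between 137 and 293 CPM, above every smooth muscle-like value, whereas Gjc1 is highest in smooth muscle-like cells in all libraries with a value.

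Gja1 (chr10:56377330-56402513, plus strand, mm10, GENCODE M21) encodes the connexin of most contracting and connective tissues. In smooth muscle-like cells its level was 122, 75.2, 88.2, 63.9, 68.8 and 103 CPM in libraries 1 to 6. In fibroblast-like cells it was 29.4, 18.2, 51.3, 44.6, 53.6 and 21.3 CPM. In endothelial-like cells it was 224, 265, 137, 293 and 233 CPM in libraries 1 to 5. Over the libraries with a value the 3 ranges did not overlap, but the share of all genes without overlap is not given here. Library 6 had too few endothelial-like cells for a value, and the few it had held little Gja1. Within libraries, the log2 ratio of smooth muscle-like to fibroblast-like cells had a median of 1.41, but it ran from 0.36 in library 5 to 2.28 in library 6. The ratio of endothelial-like to smooth muscle-like cells had a median log2 of 1.76 (range 0.64 to 2.20). Leukocyte-like cells, used here as a guide to what free RNA can leave in other droplets, had a median of 8.19 CPM (0 to 14.9), below every fibroblast-like library. The level of free RNA itself was not estimated, and whether these cells express Gja1 themselves was not tested.

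Gja4 (chr4:127311421-127314039, minus strand) encodes an endothelial and arterial smooth muscle connexin. Its endothelial-like level was 78.9, 128, 140, 88.3 and 35.4 CPM in libraries 1 to 5. In smooth muscle-like cells it was 8.91, 28.9, 18.7, 30.7, 26.2 and 28.4 CPM in libraries 1 to 6, and in fibroblast-like cells 5.61, 10.1, 4.87, 6.32, 9.41 and 4.16 CPM. Library 1 stood lowest in smooth muscle-like cells, at a level under the highest fibroblast-like one, although within every library smooth muscle-like cells were the higher of these 2 classes (median log2 ratio 1.72, range 0.66 to 2.75). Cdh5, the endothelial cadherin, was at 561 CPM in endothelial-like and 0.219 CPM in smooth muscle-like cells summed over libraries, whereas Gja4 was at 107 and 23.2 CPM. The endothelial markers Pecam1 and Esam were at 853 and 570 CPM in endothelial-like cells and at 21.4 and 22.2 CPM in smooth muscle-like cells. The remaining endothelial markers were, like Cdh5, under 1 CPM in smooth muscle-like cells. Whether endothelial RNA added to the smooth muscle-like Gja4 level was not tested.

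Gja5 (chr3:96904693-97077416, plus strand) encodes the connexin of arterial endothelium and of atrial muscle. Its endothelial-like level was 23.0, 8.84, 43.1, 34.9 and 60.4 CPM in libraries 1 to 5, from 130 UMIs with library 6 included. Smooth muscle-like cells held 2 Gja5 UMIs, 0.0244 CPM with an exact Poisson 95% interval of 0.00295 to 0.0881, and fibroblast-like cells held 31, at 0.0797 to 1.07 CPM. Summed over libraries, the endothelial-like level was 1607 times the smooth muscle-like one, with a counting interval of 436 to 13407 that is wide because the smooth muscle-like level rests on 2 UMIs. In leukocyte-like cells 1 Gja5 UMI was counted. The annotated Gja5 span overlaps genes on the other strand, antisense genes among them, and whether counting used strand is not given in the sources used here, so Gja5 counts are uncertain to that extent.

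Gjc1 (chr11:102799579-102819700, minus strand) encodes a connexin of low unitary conductance. It was the most even member: 58.0, 59.3, 63.8, 69.7, 81.0 and 69.7 CPM in smooth muscle-like cells of libraries 1 to 6. In fibroblast-like cells it ran from 17.8 to 25.4 CPM, and in endothelial-like cells from 35.3 to 52.2 CPM. Among libraries with a value, its order of smooth muscle-like over endothelial-like over fibroblast-like held without overlap. The share of all genes without overlap is not given here, so this order is a description only. The smooth muscle-like to fibroblast-like log2 ratio was 1.47 to 1.74 in all 6 libraries. Leukocyte-like cells had a median of 1.71 CPM (0 to 6.93).

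Over all genes with at least 10 CPM on either side, 34.6% were higher in smooth muscle-like than in fibroblast-like cells in all 6 libraries and 38.0% were lower. Gja1, Gja4 and Gjc1 passed that level, Gja4 only through the smooth muscle-like cells, and all 3 were higher. Between endothelial-like and smooth muscle-like cells, 34.0% of genes were higher in the endothelial-like cells in all 5 libraries and 23.5% were lower. Gja1, Gja4 and Gja5 were higher and Gjc1 was lower, and Gja5 passed the level only through the endothelial-like cells. Directions shared by all libraries were thus common among genes, and the counts of members are read against these shares only.

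Counted per cell and thinned to 3000 UMIs so that depths were equal, 18.2% of smooth muscle-like cells had a Gja1 UMI, 5.56% a Gja4 UMI and 18.0% a Gjc1 UMI. Without thinning the shares were 34.6%, 10.2% and 38.8%, at a median depth of 7205 UMIs. The thinned shares of leukocyte-like cells were 2.90%, 0.223% and 0.891%, with exact 95% binomial intervals reaching 4.90%, 1.23% and 2.27%, and their median depth was 5170 UMIs (unthinned 3.83%, 0.365% and 1.82%). In endothelial-like cells the thinned shares were 37.1% for Gja1, 17.9% for Gja4, 6.22% for Gja5 and 12.7% for Gjc1, and 50.9%, 24.1%, 7.52% and 20.6% unthinned at a median depth of 4707 UMIs. Thinning left out 566 smooth muscle-like, 154 endothelial-like and 99 leukocyte-like cells. Gjb2 was found in 0 of 9798 thinned smooth muscle-like cells, which allows a share of cells with a UMI of up to 0.0306%. Intervals and limits cover counting error only.

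Smooth muscle-like cells were not alike in their connexins. In the subcluster led by Pgam2, Olfr558 and Pln, Gja4 and Gjc1 were high and Gja1 was low, and no other of the 9 smooth muscle-like subclusters had this combination. Pln encodes phospholamban, the inhibitor of the sarcoplasmic calcium pump. The subcluster held 1292 cells, 8.76% to 17.8% of the smooth muscle-like cells of a library.

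Gja4 there was at 65.8, 149, 135, 162, 116 and 130 CPM in libraries 1 to 6, against 4.38, 6.90, 8.32, 10.8, 13.1 and 7.98 CPM in the other smooth muscle-like cells. The lowest value inside was far above the highest outside, and the median log2 ratio was 3.95 (range 3.14 to 4.42). Although 12.5% of smooth muscle-like cells belonged to the subcluster, they held 66.0% of the Gja4 UMIs of the class. Gjc1 was at 113, 88.2, 150, 137, 128 and 122 CPM inside and 53.6 to 74.1 CPM outside (median log2 ratio 1.06, range 0.71 to 1.42). Gja1 went the other way, with 46.3, 36.5, 19.0, 20.3, 25.1 and 20.2 CPM inside and 70.5 to 128 CPM outside (median log2 ratio -1.69, range -2.57 to -1.17). For all 3 members the ranges inside and outside did not overlap, but the share of all genes without overlap is not given here, so this is a description only.

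**Figure D2:**
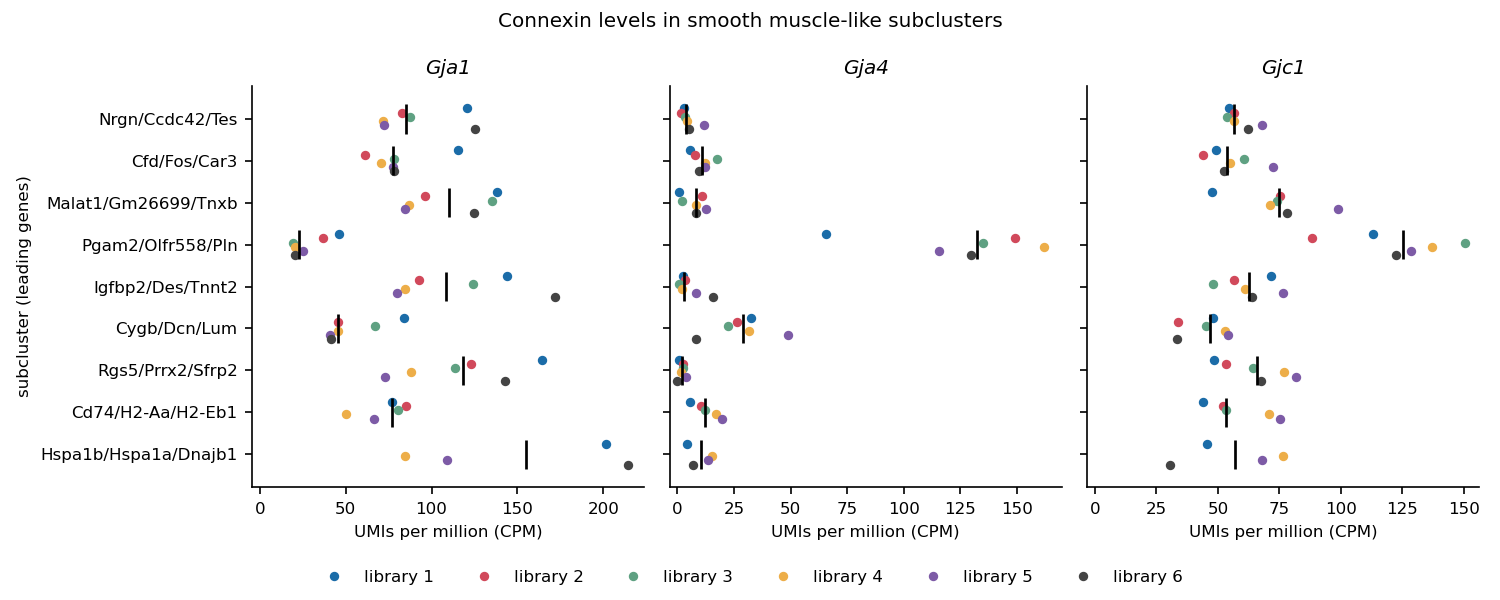
Levels of Gja1, Gja4 and Gjc1 (horizontal axes, CPM, linear) in the 9 smooth muscle-like subclusters, named by their leading genes, with 1 point per library with at least 20 cells and the median as a line. In the Pgam2/Olfr558/Pln subcluster, Gja4 (65.8 to 162 CPM) and Gjc1 (88.2 to 150 CPM) are right of all others except in 1 library for Gjc1, and Gja1 (19.0 to 46.3 CPM) is at the left.

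Gja1 was lower still where the subcluster was drawn more narrowly. At a clustering resolution of 0.5 it comprised 556 cells with 26 Gja1 UMIs, 0.966 to 21.6 CPM by library, and the median log2 ratio was -4.08. Clustering log-normalized counts without integration gave 577 cells with 23 Gja1 UMIs, 0 to 9.05 CPM, and a ratio of -4.37. At that level Gja1 was close to the 8.19 CPM of leukocyte-like cells. Gja4 reached a median of 150 and 148 CPM, and Gjc1 181 and 174 CPM, in these narrower groups. Over all genes with at least 10 CPM, 12.1% were higher and 24.4% lower in the subcluster than in the other smooth muscle-like cells in all 6 libraries. The subcluster had a median of 6853 UMIs per cell, 0.929% of its cells were marked as doublets, and endothelial markers summed to 61.8 CPM, against 20.8 to 52.5 CPM in the other subclusters and 3162 to 5861 CPM in the endothelial-like ones.

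The remaining smooth muscle-like subclusters differed less. Gja1 had medians of 108 CPM in the Igfbp2/Des/Tnnt2, 119 CPM in the Rgs5/Prrx2/Sfrp2 and 85.3 CPM in the Nrgn/Ccdc42/Tes subcluster. Their library ranges overlapped. Gja4 was lowest in the Rgs5/Prrx2/Sfrp2 subcluster, at 0 to 3.84 CPM. The highest Gja1 median, 155 CPM (84.3 to 214, 4 libraries), was in the 153 cells led by the heat shock genes Hspa1b, Hspa1a and Dnajb1. Immediate early and heat shock genes that tissue dissociation induces, 16 in all, summed to 19729 CPM there. They summed to 29472 CPM in the Cfd/Fos/Car3 subcluster, where Gja1 was 77.7 CPM, and to 5050 CPM in the Nrgn/Ccdc42/Tes and 21201 CPM in the Pgam2/Olfr558/Pln subcluster; their part in the Gja1 levels was not tested. The Cygb/Dcn/Lum subcluster had intermediate Gja4 (28.9 CPM, 8.34 to 48.8) and Gja1 (45.7 CPM, 41.1 to 83.8), but 26.1% of its cells were marked as doublets and fibroblast markers summed to 7537 CPM in it.

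The members were also compared within cells. In thinned smooth muscle-like cells, Gja1 was found in 7.16% of the 545 cells with a Gja4 UMI (exact 95% interval 5.14% to 9.65%) and in 18.8% of the 9253 cells without (18.1% to 19.7%). The share was lower in the Gja4-positive cells in all 6 libraries. Gjc1 showed the opposite, with 29.7% of cells with and 17.3% of cells without a Gja4 UMI, higher in all 6 libraries. For Gjc1 within the Pgam2/Olfr558/Pln subcluster, the shares were 32.0% and 28.1%, with overlapping intervals, and higher in only 4 of 6 libraries. In the other smooth muscle-like cells the Gjc1 shares were 25.9% and 16.1%, higher in 6 of 6 libraries. Within the Pgam2/Olfr558/Pln subcluster the Gja1 shares were 3.49% and 6.53%, with overlapping intervals, and lower in 6 of 6 libraries. In the other smooth muscle-like cells they were 13.4% and 20.2%, lower in 6 of 6 libraries, and 15.8% and 20.9%, lower in 5 of 6, once the doublet-rich subcluster was left out. Unthinned, the shares over all smooth muscle-like cells were 18.0% and 36.5%.

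**Figure D3:**
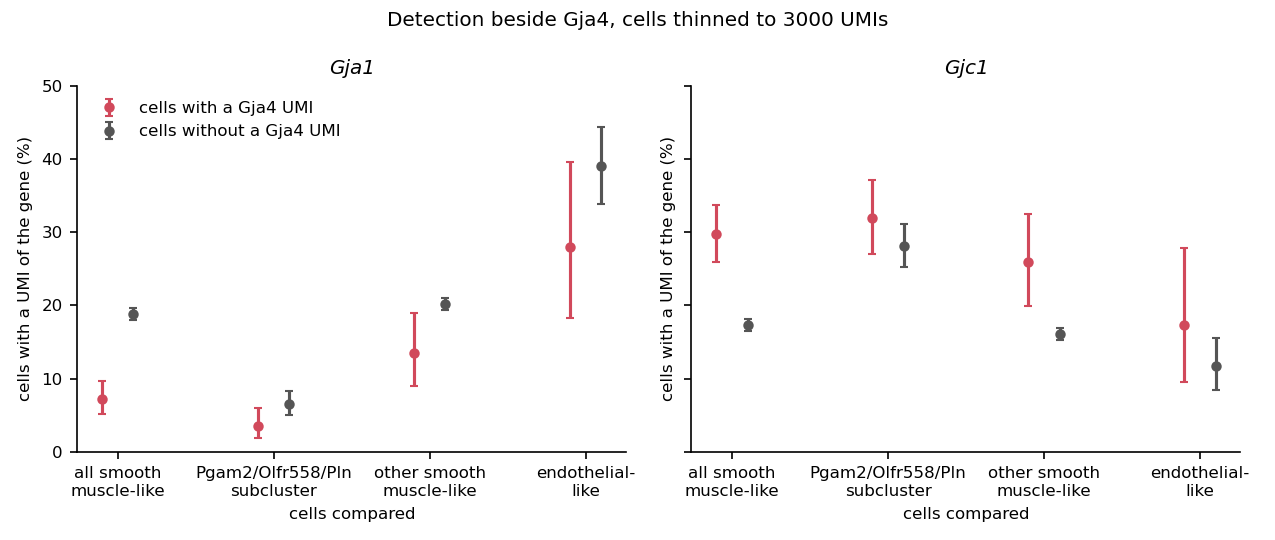
Share of cells with a Gja1 UMI (left) or a Gjc1 UMI (right) among cells with and without a Gja4 UMI (vertical axes, percent of cells thinned to 3000 UMIs, linear), for all smooth muscle-like cells, the Pgam2/Olfr558/Pln subcluster, the other smooth muscle-like cells and endothelial-like cells; bars are exact 95% binomial intervals. In all smooth muscle-like cells Gja1 is at 7.16% beside Gja4 and 18.8% without it, whereas Gjc1 is at 29.7% and 17.3%.

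As a class, fibroblast-like cells had less Gja1, Gja4 and Gjc1 than smooth muscle-like cells in all 6 libraries, but their subclusters differed. A subcluster was led by Spp1, Cilp2 and Chad, genes known from cartilage and tendon matrix. Gja1 there was at 86.5, 48.2, 165, 136 and 123 CPM in libraries 1 to 5. Smooth muscle-like cells ranged from 63.9 to 122 CPM over libraries. The value of 86.5 CPM lay within that range, 48.2 CPM below it, and 123, 136 and 165 CPM above it. The other fibroblast-like cells were at 16.9 to 48.4 CPM. Within libraries the median log2 ratio was 1.66 (1.35 to 1.99). Gja4 was also higher there, at 27.9, 37.2, 24.0, 11.8 and 23.0 CPM against 3.24 to 8.90 CPM (median log2 ratio 2.06, 1.01 to 2.87), and Gjc1 was not, with a median log2 ratio of 0.13 (-0.09 to 0.26). Over all genes, 8.89% were higher in this subcluster in all 5 libraries. Clustering without integration drew a wider group of 1514 cells, where the Gja1 ratio was 1.18.

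**Figure D4:**
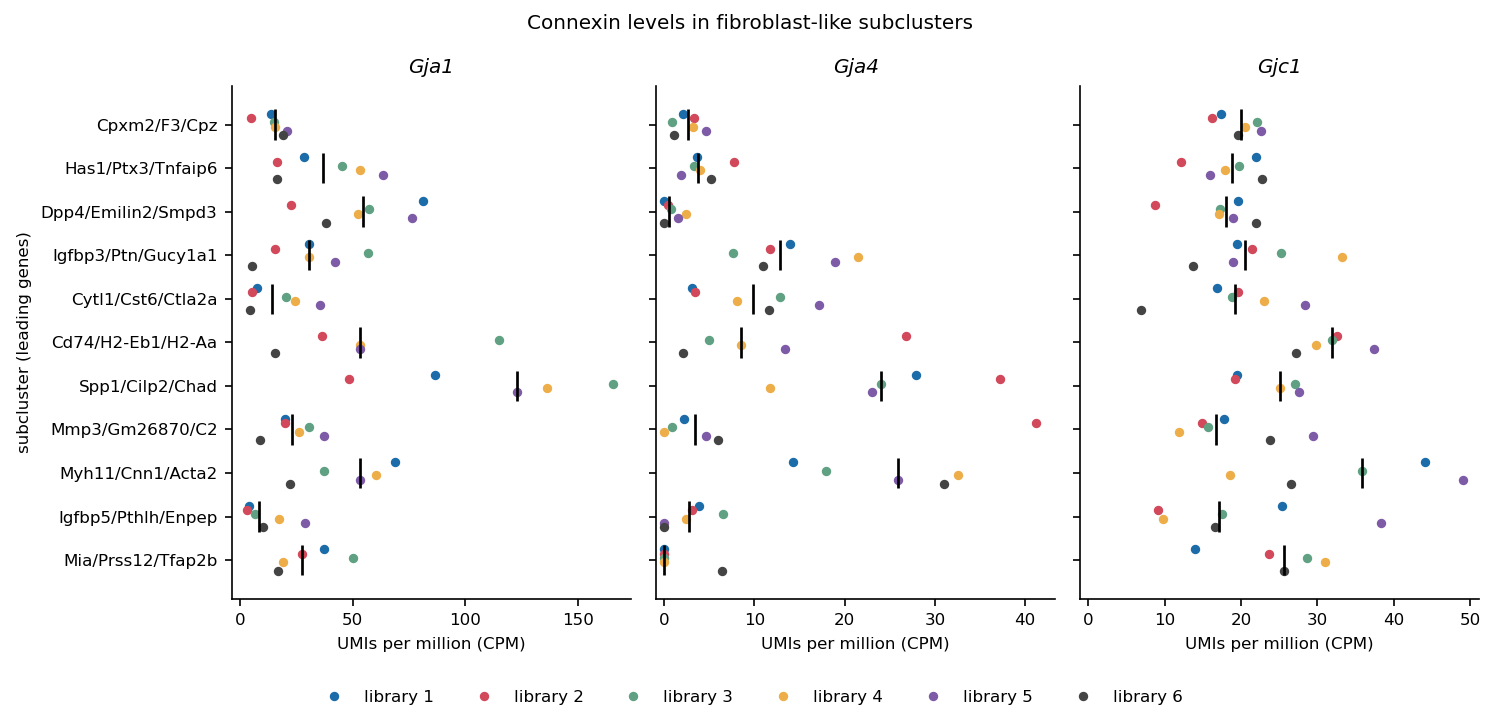
Levels of Gja1, Gja4 and Gjc1 (horizontal axes, CPM, linear) in the 11 largest of 12 fibroblast-like subclusters, named by their leading genes, with 1 point per library with at least 20 cells and the median as a line. Gja1 has its highest median, 123 CPM, in the Spp1/Cilp2/Chad subcluster and medians of 15.5 CPM or less in the Cpxm2/F3/Cpz, Cytl1/Cst6/Ctla2a and Igfbp5/Pthlh/Enpep subclusters.

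The largest fibroblast-like subcluster, Cpxm2/F3/Cpz with 3692 cells, had little Gja1 (15.5 CPM, 5.05 to 20.8) and was lower than the other fibroblast-like cells in 6 of 6 libraries, by a median log2 of -1.66. The difference was -0.21 in library 6 and -1.44 to -2.09 in the others. Gja1 was at 54.7 CPM (22.5 to 81.4) in the Dpp4/Emilin2/Smpd3 and at 36.9 CPM (16.5 to 63.6) in the Has1/Ptx3/Tnfaip6 subcluster, ranges that overlapped. Of the 31 fibroblast-like Gja5 UMIs, 20 were in the 816 cells of the Cd74/H2-Eb1/H2-Aa subcluster, which also had Coch and Wif1 among its markers. Only 8 of the 816 cells held these 20 UMIs, and 18 of 13417 fibroblast-like cells held all 31. The 20 UMIs came from libraries 2, 3, 4 and 6, with 2, 2, 8 and 8 UMIs, and library 5 had 0 from 64 cells. Endothelial markers summed to 26.5 CPM over all cells of this subcluster, which does not describe those 8 cells, and to 20.6 to 172 CPM in the others. Other subclusters also reached smooth muscle-like levels. Gja4 was at 25.9 CPM (14.3 to 32.5) in the Myh11/Cnn1/Acta2 subcluster, which had a doublet share of 42.8%. In single libraries Gja1 reached 115 CPM in the Cd74/H2-Eb1/H2-Aa subcluster and Gja4 reached 41.2 CPM in the Mmp3/Gm26870/C2 subcluster, whose medians were 53.0 and 3.44 CPM.

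Endothelial-like cells fell into 4 subclusters, and the markers of some went against the name. The Cfd/Car3/Car4 subcluster held 289 of the 572 endothelial-like cells and had Ucp1, Scarb1 and Cd300lg among its leading genes. Its Gja1 was at a median of 292 CPM (165 to 359, 5 libraries), Gja4 at 51.1 CPM (28.0 to 71.5) and Gja5 at 25.4 CPM (7.04 to 55.0). The Cytl1/Fst/Dcn subcluster (150 cells) had less Gja1, 83.6 and 136 CPM in the 2 libraries with 20 cells, and more Gja4, 129 and 169 CPM. Its Gja5 was at 49.8 and 72.8 CPM. In this subcluster 12.0% of cells were marked as doublets, and smooth muscle and fibroblast markers summed to 5271 and 7210 CPM, against 780 and 233 CPM in the Cfd/Car3/Car4 subcluster. In the Cytl1/Fst/Dcn subcluster both sums were above the 4055 CPM of endothelial markers. Its leading genes included the fibroblast marker Dcn, so its connexin levels cannot be assigned to endothelial cells alone. Dissociation genes summed to 18091 CPM in it and to 30277 CPM in the Cfd/Car3/Car4 subcluster. The part of other cell types or of dissociation in the connexin levels was not tested. Library 3, which had 68 of its 131 endothelial-like cells in the Cytl1/Fst/Dcn subcluster, had the lowest Gja1 and the highest Gja4 of the endothelial-like values.

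The Ccl21a/Mmrn1/Reln subcluster was lymphatic-like by its markers and held 113 cells, 75 of them from library 4. Gja1 was at 328 CPM and Gja4 at 71.8 CPM, and Gja5 was not counted. A count of 0 among its 515480 UMIs allows up to 5.82 CPM, whereas the other endothelial-like cells of library 4 were at 45.4 CPM. Of the endothelial-like cells with a Gja4 UMI, 22.5% also had a Gja5 UMI, against 2.76% of those without, higher in 5 of 5 libraries. Thinned, the shares were 18.7% (10.6% to 29.3%) and 3.50% (1.82% to 6.03%), higher in both libraries with 10 such cells.

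The Ifitm1/Vtn/Cox4i2 subcluster held 20 cells, 13 of them from library 4. Its 10 leading genes included the pericyte markers Vtn, Rgs5 and Kcnj8 and no endothelial marker, and pericyte markers summed to 9921 CPM against 4095 CPM for endothelial markers. Over its cells Gja1 was at 252 CPM, Gja4 at 190 CPM, Gja5 at 49.5 CPM and Gjc1 at 124 CPM. With these cells left out, the endothelial-like medians were 226 CPM for Gja1, 78.9 CPM for Gja4, 29.1 CPM for Gja5 and 42.7 CPM for Gjc1, and Gjc1 remained lower than in smooth muscle-like cells in all 5 libraries.

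**Figure D5:**
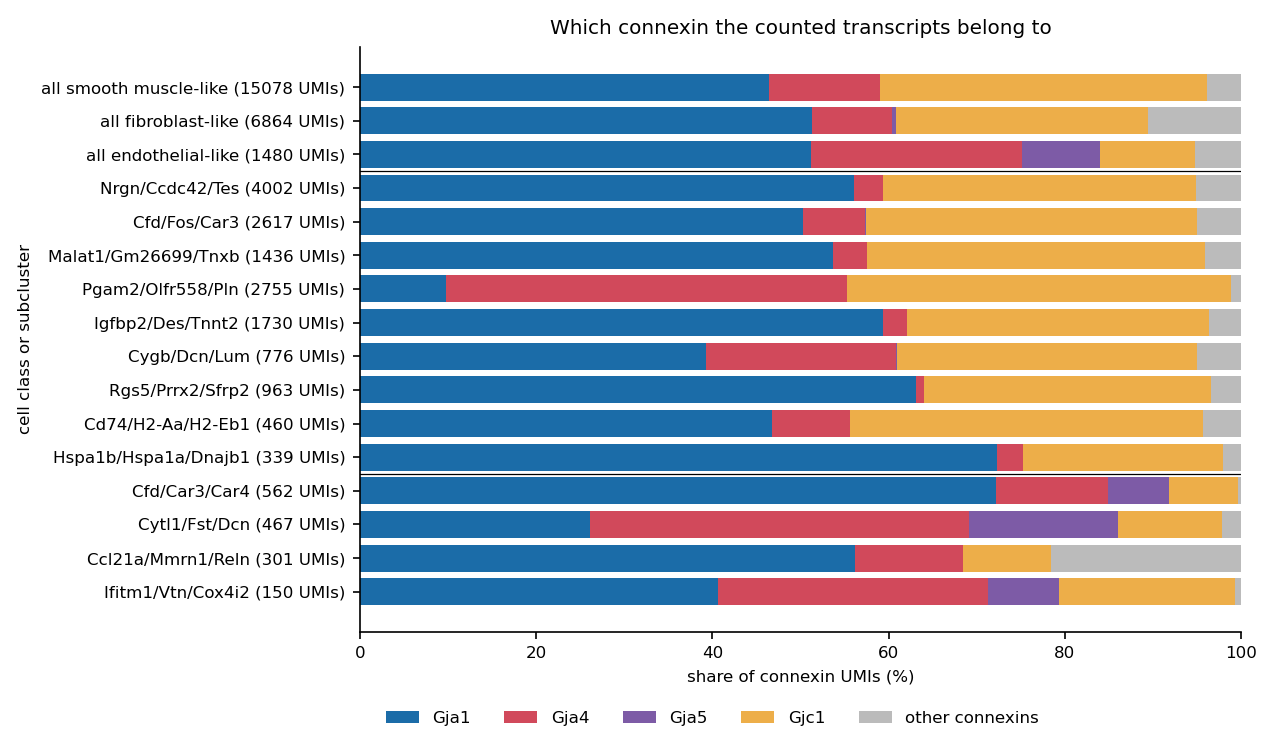
Share of all counted connexin UMIs that belongs to each gene (horizontal axis, percent, linear, bars from 0 to 100), for 3 cell classes, the smooth muscle-like subclusters and the endothelial-like subclusters, over all libraries together, with the number of connexin UMIs beside each name. Gja1 holds 46.4% of connexin UMIs in smooth muscle-like cells and 9.73% in the Pgam2/Olfr558/Pln subcluster, where Gja4 holds 45.6% and Gjc1 43.6%.

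As shares of all connexin UMIs, Gja1 held 46.4% in smooth muscle-like, 51.3% in fibroblast-like and 51.2% in endothelial-like cells. Gjc1 held 37.1%, 28.6% and 10.7%, and Gja4 12.6%, 9.09% and 24.0%. Gja5 held 8.78% of the endothelial-like connexin UMIs. In the Pgam2/Olfr558/Pln subcluster Gja1 held 9.73%, so that Gja4 and Gjc1 together made up most of the 2755 connexin UMIs, whereas in the Spp1/Cilp2/Chad subcluster Gja1 held 72.4% of 1009.

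Of the 18 other connexins and pannexins, 9 reached 20 UMIs in a class, and 5 of these are described here. Panx1, a channel former that does not dock between cells, was at 5.71 to 12.8 CPM in fibroblast-like and 0.113 to 0.916 CPM in smooth muscle-like cells. In the Dpp4/Emilin2/Smpd3 subcluster its median was 22.0 CPM. Gjb5 (Cx31.1) was at 1.67 to 5.11 CPM in fibroblast-like cells, with a median of 12.5 CPM in the same subcluster. Gjc3, known from myelinating glia, had 23 UMIs in 54 glia-like cells. Gja3 had 20 and Gjd4 had 37 UMIs among fibroblast-like cells, below 1 CPM.

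Genes whose products anchor or regulate gap junctions were widely expressed. Of 14 such genes in the files, 13 passed 10 CPM in the comparison of smooth muscle-like with fibroblast-like cells, where 7 were higher and 3 lower in all 6 libraries, beside 34.6% and 38.0% of all genes. Their median log2 ratio was 0.18, against -0.02 over all genes. The highest in smooth muscle-like cells were Nov, a matricellular partner of Gja1, at 1588 CPM, the ubiquitin ligase Nedd4 at 838 CPM and caveolin Cav1 at 483 CPM. In fibroblast-like cells they were Nedd4 (694 CPM), Ctnnb1 (228 CPM) and Ctnna1 (124 CPM), and in endothelial-like cells Cav1 (1526 CPM), Cdh5 (547 CPM) and Nedd4 (525 CPM). In the Pgam2/Olfr558/Pln subcluster 2 of 13 were higher and 7 lower than in the other smooth muscle-like cells, beside 12.1% and 24.4% of all genes. The share that was higher was thus near that of all genes, and the share that was lower was above it.

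Arterial endothelial genes, many of them of the Notch pathway, were described beside Gja4 and Gja5. In endothelial-like cells 11 of 12 were higher than in smooth muscle-like cells in all 5 libraries, beside 34.0% of all genes, with a median log2 ratio of 3.78 against 0.18 over all genes. Most of the list was under 10 CPM in smooth muscle-like cells and passed only through the endothelial-like side. Such genes could hardly be counted as lower, so the count is a description only. In the Pgam2/Olfr558/Pln subcluster 6 of the 7 that passed 10 CPM were higher than in the other smooth muscle-like cells in all 6 libraries and none was lower, beside 12.1% and 24.4% of all genes, with a median of 0.77 against -0.08 over all genes. Of these, Notch1 and Hey1 passed 10 CPM only through the subcluster and could hardly be counted as lower. The receptor Notch1 was at 14.5 against 4.10 CPM (median log2 ratio 1.77, 1.49 to 2.83), its ligand Jag1 at 85.0 against 48.0 CPM (1.01, 0.39 to 1.21), and the target genes Hey2 at 80.1 against 46.1 CPM (0.97, 0.47 to 1.02) and Hey1 at 10.5 against 6.69 CPM (0.77, 0.38 to 1.07). Klf2 and Klf4 were the other genes of the list that were higher in all 6 libraries. The part of tissue dissociation in these levels was not tested. The list was chosen with earlier results of these data known, and subclusters were formed from these same cells.

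Over 24 subclusters that had a value, the genes most like each member in log2(median CPM + 1) were, for Gja1, Arhgef3 (Pearson r 0.90), Maoa (0.88) and Rin3 (0.85). For Gja4 they were Rapgef5 (0.82), Cd93 (0.80) and Smc4 (0.79). For Gja5 they were Ptprr (0.99), H2-Q6 (0.99) and 4833403J16Rik (0.98), and for Gjc1 they included Kalrn (0.94) and Vps37b (0.94). These were among the highest of 11018 genes, and the subclusters share libraries. The Gja5 median was above 0 only in the endothelial-like Cfd/Car3/Car4 (25.4 CPM) and Cytl1/Fst/Dcn (61.3 CPM, 2 libraries) and the fibroblast-like Cd74/H2-Eb1/H2-Aa (1.42 CPM) subclusters. The r values of Gja5 rest on these few subclusters. Between members, r was 0.51 for Gja4 with Gja5, 0.50 for Gja1 with Gjc1 and 0.38 for Gja1 with Gja4.

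The sequences before the starts of Gja1, Gja4 and Gja5 are shown because these 3 genes were highest in endothelial-like cells. Each is the 250 bases upstream of the RefSeq start (build GRCm38.p6), at chr10:56377050-56377299 on the plus strand, chr4:127314040-127314289 on the minus strand and chr3:97032152-97032401 on the plus strand, written 5′ to 3′ on the gene's strand. Capitals mark matches on either strand to 3 motifs, and the TATA box, searched as TATAAA, had none. The AP-1 motif was searched as TGAGTCA. The motif of GATA factors was searched as AGATAA. The GC box was searched as GGGCGG, and no 2 matches overlapped.
Gja1: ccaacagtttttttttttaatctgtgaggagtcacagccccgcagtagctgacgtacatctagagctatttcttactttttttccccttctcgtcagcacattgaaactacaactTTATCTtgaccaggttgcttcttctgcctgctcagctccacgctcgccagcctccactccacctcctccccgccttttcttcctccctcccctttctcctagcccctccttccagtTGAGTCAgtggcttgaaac
Gja4: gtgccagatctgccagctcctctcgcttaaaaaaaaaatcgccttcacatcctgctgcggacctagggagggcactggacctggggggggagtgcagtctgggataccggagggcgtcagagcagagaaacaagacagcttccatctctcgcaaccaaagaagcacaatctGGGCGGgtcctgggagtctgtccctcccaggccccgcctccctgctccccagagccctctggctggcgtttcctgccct
Gja5: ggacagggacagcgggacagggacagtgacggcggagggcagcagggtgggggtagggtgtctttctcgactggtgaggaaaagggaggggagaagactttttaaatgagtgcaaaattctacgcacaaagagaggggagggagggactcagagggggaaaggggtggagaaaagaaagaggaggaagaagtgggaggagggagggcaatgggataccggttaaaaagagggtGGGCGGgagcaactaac
The Gja1 sequence held an AP-1 match beginning 19 bases before the start and a GATA match on the other strand beginning 135 bases before it. Gja4 and Gja5 each held 1 GC box, beginning 79 and 17 bases before the start. Of 32851 promoters of this length, 4.46% held the AP-1 letters, 9.99% the GATA letters, 32.7% the GC box and 12.4% the TATA box. A match is a description of the letters and no evidence of binding.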

How the data were processed

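The authors aligned reads to mm10 and aggregated 6 libraries into a single matrix of deposited UMI counts per gene and cell; the submitters' notes name Cell Ranger 6 and the matrix header 4.0.0. Cells with over 1000 and under 5000 genes, over 1500 and under 25000 UMIs and under 20% mitochondrial UMIs were kept, after the study's methods. Kept libraries held 18218282 to 38105145 UMIs, and their number limits precision. Each library was normalized by SCTransform on 3000 variable genes and integrated by RPCA over 30 components (Seurat 5.3.0, resolution 0.25 for classes, 0.3 for subclusters; endothelial-like cells were log-normalized only). Connexin and pannexin genes were left out of the variable features. Doublets were marked by scrublet (scanpy 1.11.5), or, where it marked under 0.5% (libraries 2 and 5), as the highest 5% of scores, and were kept. After the data were seen, 54 glia-like and 17 cardiomyocyte-like cells were set apart. Log2 ratios used a prior of 0.5 UMI. The counting of directions over libraries was checked on simulated counts. The members and gene lists were chosen with earlier results of these data known. All members were named, and other connexins and pannexins at 20 UMIs in a class. So were the 3 highest junction genes per class and the 3 genes most like each member. Values in the subcluster were given for up to 4 arterial genes. Some genes and 1 subcluster that these rules name are not reported here. No p-value was computed.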

Additional observations from a re-analysis of the deposited data

Results flagged for a closer look

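Of 75 sets of library values, 2 had a library far from the others by Dixon's criterion, which chance meets in about 1 of 20 sets. Gja1 in the Cfd/Fos/Car3 smooth muscle-like subcluster was at 115 CPM in library 1, against a median of 77.7 CPM. Gjc1 in the Dpp4/Emilin2/Smpd3 fibroblast-like subcluster was at 8.76 CPM in library 2, against a median of 18.1 CPM.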

How the results depend on the processing

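Of 321 alternative values for 25 results, 312 moved by less than the spread between libraries (for shares, stayed within the counting interval) and none changed direction. Averaging CPM over cells put Gjc1 in endothelial-like cells at 41.6 CPM. For the Pgam2/Olfr558/Pln subcluster, clustering without integration gave log2 ratios of -4.37 for Gja1 and 1.52 for Gjc1, and a resolution of 0.5 gave -4.08 and 1.56; these groups held fewer cells. Clustering without integration gave 1.18 for Gja1 in the Spp1/Cilp2/Chad subcluster. Without thinning, 34.6%, 10.2% and 38.8% of smooth muscle-like cells had a Gja1, Gja4 or Gjc1 UMI, since cells were deeper. Leaving out each library, marked doublets, cells with Pecam1 or Cdh5, or cells above 10% mitochondrial UMIs, and a prior of 2 UMIs, moved no result beyond that spread. The same held for 4 alternatives chosen after seeing the data: keeping glia-like and cardiomyocyte-like cells in their integrated class, leaving out the 152 kept cells with a barcode found in several libraries, leaving out doublet-rich subclusters, and leaving out the endothelial-like subcluster led by pericyte markers. No paired analysis was possible because barcode suffixes are not paired with mice and no result comes from a test. Endothelial-like values rest on 572 cells.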

Other observations

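The 10 endothelial-like cells of library 6 held 2 Gja1, 43 Gja4, 7 Gja5 and 2 Gjc1 UMIs of 78265. They are not part of the endothelial-like ranges given above. Their Gja1 count was below what the endothelial-like levels of the other libraries would give. The 54 glia-like cells, which separated from fibroblast-like cells only without integration, held 14 Gjc1 UMIs and 1 Gja1 UMI, and the 17 cardiomyocyte-like cells held 9 Gjc1 UMIs and 1 Gja1 UMI.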
